A study of Mus musculus with 3 samples.

Results

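The 43 class II odorant receptor promoters described here lie on mouse chromosome 7 outside the 2 large receptor clusters of that chromosome, the class I cluster and the class II cluster around the P element. They were chosen by position and name alone from the table of named promoter positions, which holds 1042 others. Positions on chromosome 7 before the class I cluster or after the P element cluster were taken, and names that occur in more than 1 row or that mark unannotated pseudogenes were left out. Of the 48 rows on these stretches, 5 were left out by name (3 unannotated pseudogenes and both rows of Olfr535). No score was used in choosing from that table. How the authors set its positions is not given, so the table itself may rest on these arrays. The class of a receptor is not a column of the files, so class II rests on the position outside the class I cluster, and all 43 names stand as protein coding genes in RefSeq's gene table.

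The study mapped where receptor transcripts begin. RNA of olfactory epithelium came from C57/Bl6 mice 6 to 8 weeks old, with 5 mice pooled per sample. Capped 5′ ends were joined to an adapter (RLM-RACE, RNA ligase mediated rapid amplification of cDNA ends), and cDNA was primed with degenerate primers against receptor coding sequence. The Stringent sample (1 array) was amplified by nested PCR and the High Coverage samples (2 arrays) by PCR without nesting, and each was hybridised to a tiling array. The labels name no treatment and no control sample. Input names in the file headers carry the word female on High Coverage 1 but male on High Coverage 2, and a difference between these arrays cannot be told apart from sex. In such bulk tissue, fewer cells with a receptor and less RNA per cell cannot be told apart. Markers of the tissue were not checked, because only receptor loci were primed.

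Odorant receptors are G protein coupled receptors on the cilia of olfactory sensory neurons, and each neuron expresses 1 allele of 1 gene. Class I receptors are the kind also found in fish, and class II receptors are the larger group of land vertebrates. A typical receptor gene has its whole coding sequence in the last exon, with one or more small noncoding exons upstream. A RACE product therefore runs from the cap into the coding exon and lacks the introns, so on a genomic array it should leave separate stretches of signal at the first exon and at the coding exon. No ligand or role of a single receptor is given in the files, and the 43 are described here by their place.

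The positions fall into 5 clusters, separated wherever neighbours lie more than 1 Mb apart (mm9). Cluster 1 holds 6 receptors over 109 kb, from 6408839 to 6517764. Cluster 2 is the pair Olfr291 and Olfr290, 59.5 kb apart, at 92002024 and 92061537. Cluster 3 holds 15 receptors over 414 kb, from 93422836 to 93836792. Cluster 4 is the pair Olfr520 and Olfr521, 33.2 kb apart, at 106878707 and 106911928. Cluster 5 holds 18 receptors over 533 kb, from 147350137 to 147883134. In all, 24 of the 43 are on the plus strand.

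Sequences around RefSeq gene starts are shown because the arrays place signal at the starts of these receptors. A genome of the files' build was not used here, so they come from RefSeq (GRCm38.p6). Each window holds 250 bases before and 50 after a RefSeq start, which need not be the end of the gene model. A window was found for 38 of the 43 receptors, and not for Olfr309, Olfr305, Olfr291, Olfr308 and Olfr294. Of the 43 gene models, 34 are 915 to 1230 bp long, 30 of these an exact multiple of 3, which is a coding length without an upstream exon. Windows beside such models would adjoin the coding start and are not shown. In 9 the model is longer than 3000 bp, and in 6 of these the RefSeq start of the window lies within 300 bp of the model's 5′ end. For Olfr5, Olfr292 and Olfr53 the model's length from the window's start (6598, 7044 and 6468 bp) is near the distance from the named position to the end of the strongest downstream signal on the Stringent array (6445, 6584 and 6486 bp). On High Coverage 1 and 2 that end was at 6517 and 6569 bp for Olfr5 and at 6536 and 6491 bp for Olfr53, but for Olfr292 it was at 6101 and 2800 bp. Olfr301 and Olfr46 are shown beside them for their similarity to Olfr292 and Olfr53, although their models (9451 and 9785 bp) run past that Stringent distance (5050 and 2613 bp). Judged by the coordinates of Olfr292 and Olfr53 in both builds, the windows of Olfr301 and Olfr46 appear to lie kilobases upstream of the named position. These 2 windows are therefore not shown as sequence of the measured start. The sixth window, of Olfr536, is left out, as its model (6466 bp) runs past the end of the Stringent block (3551 bp). It also has no match as close as these pairs, its best being 169 of 300 bases with Olfr53. The best match of Olfr5 was lower (158 bases), and Olfr5 is shown for its model length alone. Judged by the coordinates of Olfr53 in both builds, however, the Olfr536 window appears to lie near the named position. This window held no homeodomain match and CCCNNGGG at -183 and -96. The windows are on chr7:6486764-6487063 (minus strand, Olfr5), chr7:86688091-86688390 (plus, Olfr292), chr7:86403599-86403898 (plus, Olfr301), chr7:140646202-140646501 (plus, Olfr53) and chr7:140601090-140601389 (plus, Olfr46). Capitals mark matches, on either strand, to the homeodomain core motif TAATTA, its variant TAATTG, the shorter form TAATNA and the TATA box TATAAA.
Olfr5: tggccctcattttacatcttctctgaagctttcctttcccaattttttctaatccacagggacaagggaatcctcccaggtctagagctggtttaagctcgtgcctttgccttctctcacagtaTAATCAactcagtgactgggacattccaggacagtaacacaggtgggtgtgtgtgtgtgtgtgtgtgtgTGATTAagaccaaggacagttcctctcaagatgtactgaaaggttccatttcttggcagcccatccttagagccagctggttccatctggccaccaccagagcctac
Olfr292: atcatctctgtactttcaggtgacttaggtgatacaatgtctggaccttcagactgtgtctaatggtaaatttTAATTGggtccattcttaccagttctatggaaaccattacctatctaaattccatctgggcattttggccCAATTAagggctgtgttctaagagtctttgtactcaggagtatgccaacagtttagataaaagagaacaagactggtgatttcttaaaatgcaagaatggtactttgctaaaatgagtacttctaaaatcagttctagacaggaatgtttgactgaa
Olfr301: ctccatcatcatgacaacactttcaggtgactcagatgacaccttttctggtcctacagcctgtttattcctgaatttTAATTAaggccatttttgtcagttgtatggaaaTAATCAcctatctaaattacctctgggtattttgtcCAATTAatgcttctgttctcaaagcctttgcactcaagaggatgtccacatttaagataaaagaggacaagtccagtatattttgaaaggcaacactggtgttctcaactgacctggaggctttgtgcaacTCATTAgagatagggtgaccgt
Olfr53: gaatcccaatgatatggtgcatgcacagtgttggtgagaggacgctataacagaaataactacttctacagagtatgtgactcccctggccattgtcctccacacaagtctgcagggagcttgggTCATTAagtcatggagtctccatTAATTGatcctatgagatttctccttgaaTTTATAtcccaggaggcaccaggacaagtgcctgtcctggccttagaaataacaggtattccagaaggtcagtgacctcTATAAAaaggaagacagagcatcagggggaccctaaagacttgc
Olfr46: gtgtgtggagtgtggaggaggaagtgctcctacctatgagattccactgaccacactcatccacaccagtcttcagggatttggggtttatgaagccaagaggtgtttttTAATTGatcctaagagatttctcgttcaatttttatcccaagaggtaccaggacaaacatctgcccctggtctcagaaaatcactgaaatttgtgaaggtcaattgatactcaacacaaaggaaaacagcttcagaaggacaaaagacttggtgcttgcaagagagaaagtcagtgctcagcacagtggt

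The cluster 3 receptors Olfr301 and Olfr292 carry related upstream sequence, and so do Olfr46 and Olfr53 of cluster 5. In a global alignment Olfr301 and Olfr292 shared 213 of 300 bases (71.0%), and Olfr46 and Olfr53 shared 196 (65.3%). The other 13 pairs among the 6 windows shared 151 to 169 bases. Both related pairs held homeodomain letters. Counted from the RefSeq start, TAATTG began at -177 in Olfr292, where TAATTA began at -172 in Olfr301, and TAATTG on the opposite strand followed at -107 in Olfr292 and at -103 in Olfr301. TAATTG began at -140 in Olfr46 and at -102 in Olfr53. Olfr53 also held TATAAA at -73 on the opposite strand and at 6 on its own. Homeodomain proteins such as Lhx2 and Emx2 and the O/E proteins (Olf1/EBF) are known regulators of receptor genes.

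Over the 38 windows, TAATTG occurred in 10 (26.3%), TAATTA in 5 (13.2%), TAATNA, which includes TAATTA, in 17 (44.7%), TATAAA in 12 (31.6%) and the O/E core CCCNNGGG in 3 (7.89%). Among all 948 receptor windows the shares were 23.2%, 18.6%, 65.8%, 41% and 3.06%. Windows that adjoin a coding start are part of both sets. Among the 86 receptor windows within 300 bp of the 5′ end of a model longer than 3000 bp, the shares were 33.7%, 23.3%, 69.8%, 32.6% and 15.1%. In the 6 such windows of the receptors described here, the counts were 4, 1, 3, 1 and 1 in the same order. Among all 32851 windows of the table the shares were 8%, 5.29%, 26.5%, 13.6% and 13.7%. The median A+T content was 60.5% in the 38 windows, 65% in all receptor windows and 47.3% in all windows. A match here is a description of letters and no site.

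Each score file gives a MAT score per probe. MAT sets each probe against the brightness its base composition predicts and averages neighbouring probes, so most probes score near 0 (median -0.73 for Stringent and -0.49 and -0.53 for High Coverage 1 and 2). Scores carry no scaling between arrays, and the headers name another probe map for Stringent, so each value is also given as a percentile among the 2188086 scored probes of its array. The value of a receptor is its highest score within 100 bp of the named position. All 43 had scored probes there, between 16 and 41 each. The authors called regions per array above a score of 2.52 on Stringent and 2.53 and 2.99 on High Coverage 1 and 2, which gave 3608, 7266 and 6311 regions. With 1 array against 2, no test between the groups was made, and neighbouring receptors may share probe sequence, which was not analysed here.

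At the named positions the Stringent array showed signal at more of these receptors than either High Coverage array. A called region lay within 100 bp at 33 of the 43 on Stringent (76.7%, exact Clopper-Pearson 95% interval 61.4 to 88.2, counting error only), against 61.7% of all named promoters. On High Coverage 1 it was 14 (32.6%, 19.1 to 48.5), against 36.4%, and on High Coverage 2 it was 19 (44.2%, 29.1 to 60.1), against 43.6%. The share of the 1042 others was 61.0% on Stringent and 36.6% and 43.6% on High Coverage 1 and 2. Linked receptors on 1 array are not replicates, so the intervals do not test a difference from the others. Since the named positions may rest on these same arrays, a region at a position may be partly fixed in advance, and the counts are a description.

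Across arrays the receptors differed widely in how often they were called. Olfr1346, Olfr5, Olfr1349, Olfr524, Olfr525, Olfr533, Olfr536, Olfr53 and Olfr541 had a region on all 3 arrays (9 of 43, 20.9%, against 17.3% of all named promoters). Another 8 had one on 2 arrays (18.6%, against 25.8%) and 23 on 1 array (53.5%, against 38.1%). Stringent alone gave a region at 19 (44.2%, against 28.3%) and High Coverage alone at 7 (16.3%, against 19.5%). No array gave one at Olfr305, Olfr527 and Olfr61 (3 of 43, 6.98%, against 18.8%).

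**Figure D1:**
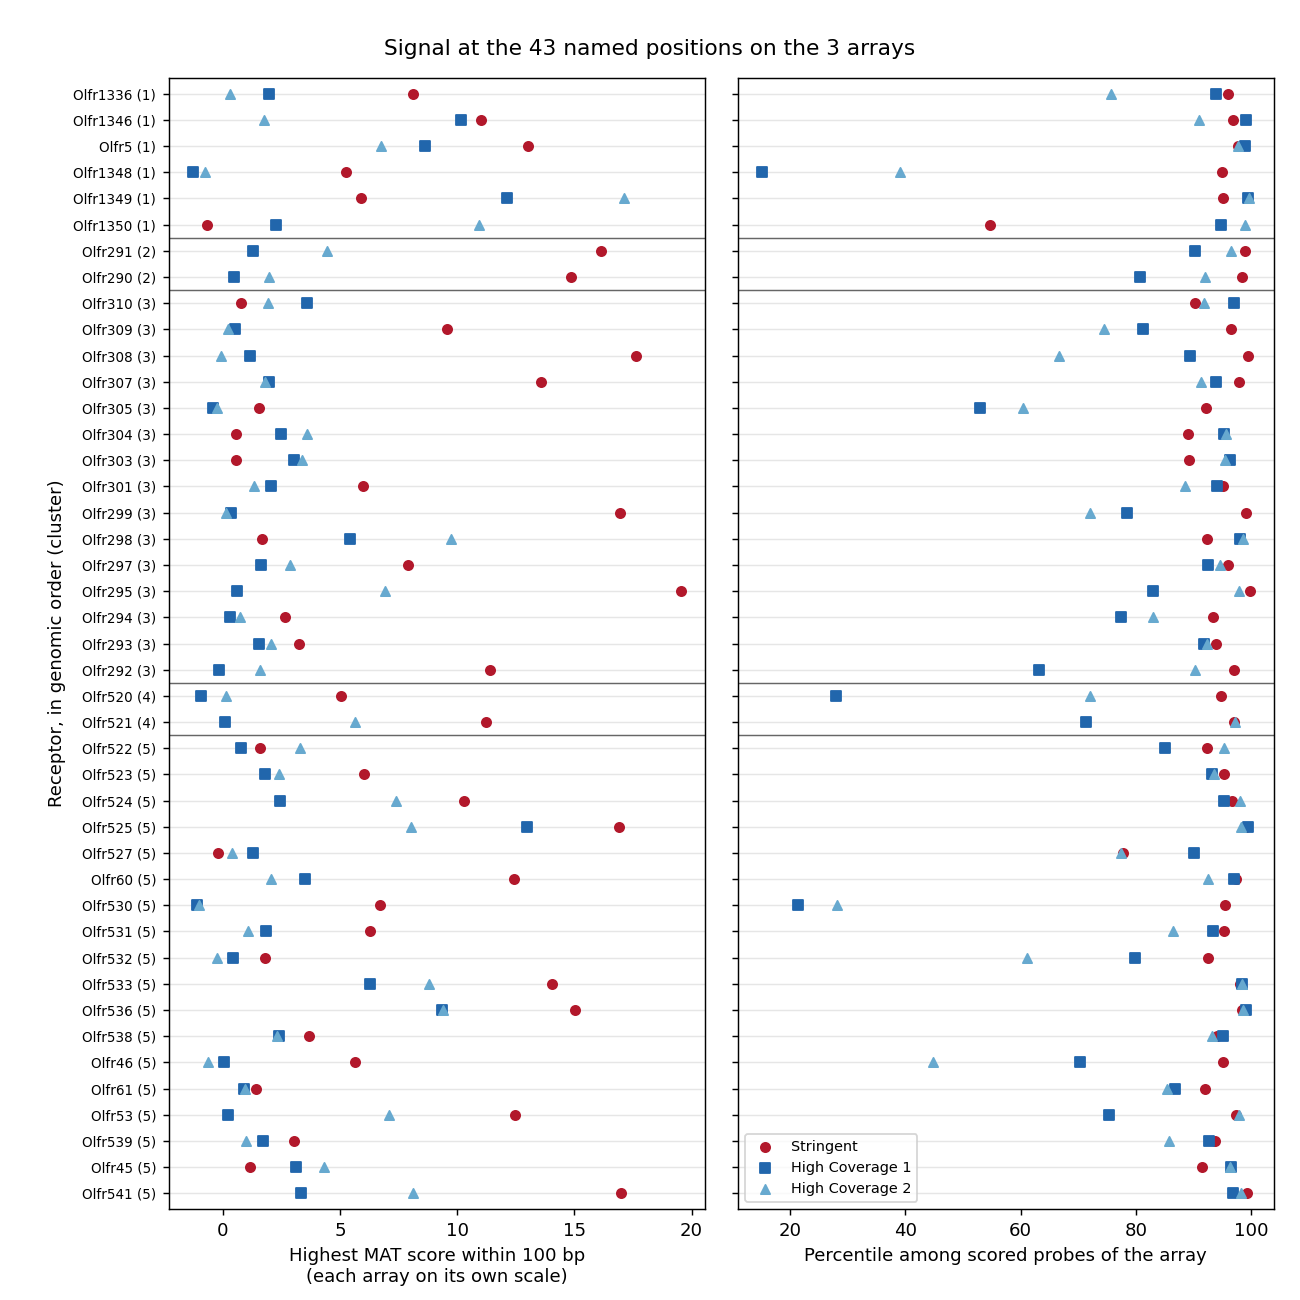
Highest MAT score within 100 bp of each of the 43 named positions (left, each array on its own scale) and its percentile among the scored probes of the array (right), in genomic order with the cluster in brackets and lines between clusters. Stringent (circles) lies between the 89.0th and 99.7th percentile except at Olfr1350 and Olfr527, and the High Coverage arrays (squares and triangles) fall far to the left at Olfr1348, Olfr520, Olfr530, Olfr46 and Olfr305.

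Since each value is the highest of many probes but is ranked among single probes, a high rank alone is no sign of signal, and the ranks serve to set receptors and lists against each other. The median percentile of the 43 was 95.3 on Stringent (quartiles 93.0 and 97.5), 92.7 on High Coverage 1 (80.2 and 96.4) and 92.4 on High Coverage 2 (80.2 and 97.5), and that of all other named promoters was 94.3, 91.3 and 92.4. With the mean score in the window in place of the highest, High Coverage 1 and 2 gave medians of 66.9 and 74.9 for the 43. The median scores were 6.29, 1.70 and 2.06, and those of the others 4.09, 1.43 and 2.06. Across the 43, the scores of the High Coverage arrays went together (Pearson r = 0.655, Spearman rho = 0.663), while Stringent and High Coverage 1 had r = 0.219 (rho 0.0498) and Stringent and High Coverage 2 had r = 0.198 (rho 0.174). Over all other named promoters r was 0.670, 0.0364 and 0.217 in the same order of array pairs (rho 0.629, -0.141 and 0.0618). The points share arrays and neighbouring loci, and these values are a description.

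Receptors were also ordered by the lowest of their 3 percentiles, and of the first 8 in that order 6 were in cluster 5. Olfr536 scored 15.02 on Stringent and 9.34 and 9.39 on High Coverage 1 and 2 (percentiles 98.5, 99.05 and 98.6). Olfr525 scored 16.9, 12.99 and 8.01 in the same order of arrays. Olfr533 scored 14.03, 6.26 and 8.78. The lowest percentile among these 3 receptors of cluster 5 was 98.05, at Olfr533, and each other receptor of the 43 was below that on at least 1 array.
Olfr5 of cluster 1 followed with 13.03, 8.64 and 6.75. Olfr541, the last receptor of cluster 5, scored 17.0, 3.35 and 8.11, and Olfr524 scored 10.3, 2.41 and 7.40. Olfr1349 of cluster 1 went the other way, with 5.89 on Stringent and 12.1 and 17.1 on High Coverage 1 and 2. Its percentiles were 95.2, 99.4 and 99.7, so it ranked higher on the High Coverage arrays. Olfr538 scored 3.68, 2.37 and 2.31 and was called only on Stringent, and its lowest percentile of 93.2 made it the last of these 8. The remaining receptors called on all arrays were Olfr1346, with 11.02, 10.2 and 1.73, and Olfr53, with 12.5, 0.220 and 7.08. On High Coverage 1, Olfr524 (2.41) and Olfr53 (0.220) were under the calling threshold within 100 bp, as was Olfr1346 on High Coverage 2 (1.73). Their regions there began 41, 65 and 59 bp after the position and scored 3.43, 8.83 and 19.02.

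Differences between Stringent and the High Coverage arrays were judged against the spread between the High Coverage arrays. That limit was 34.3 percentile points, the 95th percentile of their absolute difference over all named promoters. The Stringent percentile minus the mean of the High Coverage percentiles had a median of 3.90 points over the 43 and 4.04 over all other named promoters, and it was above 0 at 31 of 43 (64.6% of all). By percentile, 5 receptors were higher on Stringent beyond the limit (11.6%, against 8.80% of all) and 1 was lower (2.33%, against 1.20%). The count depends on the scale. With each array scaled by its median and median absolute deviation (MAD), 25 were higher (58.1%, against 40.7% of all) and 0 lower (against 1.95%), and the median difference was 14.9 MAD units over the 43 and 6.91 over all named promoters. Without High Coverage 1 the count by percentile was 3.

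The 5 receptors above the limit lay between the 15.1th and 72.1th percentile on the High Coverage arrays. Olfr530 scored 6.69 on Stringent, against -1.09 and -1.03 on High Coverage 1 and 2 (percentiles 95.5, 21.4 and 28.1), a difference of 70.7 points. Olfr1348 scored 5.26, against -1.26 and -0.776, a difference of 67.8. Olfr520 scored 5.04, against -0.938 and 0.130, a difference of 44.8, and Olfr46 scored 5.65, against 0.0306 and -0.648, a difference of 37.6. In all 4 the Stringent value lay above both High Coverage values and was called, and no High Coverage array gave a region. Olfr305, with 1.54 against -0.423 and -0.264, passed the limit by rank at 35.5 points but had no region on any array. Olfr299 came next, at 23.9 points and within the limit, with 17.0 against 0.356 and 0.130.

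Olfr1350 of cluster 1 was the one receptor lower on Stringent beyond the limit. It scored -0.660 on Stringent, against 2.27 and 10.9 on High Coverage 1 and 2 (percentiles 54.7, 94.8 and 98.9), a difference of -42.2 points, and only High Coverage 2 gave a region. The next lowest differences were small and inside the limit. They were -6.73 at Olfr303, -6.48 at Olfr304, -6.04 at Olfr527, -5.99 at Olfr298 and -4.99 at Olfr45. Of these, Olfr303 (0.572 on Stringent, 3.02 and 3.38 on High Coverage), Olfr298 (1.66, against 5.43 and 9.74) and Olfr45 (1.17, against 3.12 and 4.31) had a region on both High Coverage arrays and none on Stringent. No other receptor of the 43 had that pattern. Olfr304 scored 0.552, against 2.48 and 3.57, with a region on High Coverage 2.

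The High Coverage arrays also differed from each other. The widest gap was at Olfr520, where the percentile was 27.9 on High Coverage 1 and 72.1 on High Coverage 2. At Olfr292 it was 63.1 and 90.2 (scores -0.181 and 1.59, with 11.4 on Stringent), and at Olfr521 71.4 and 97.2 (scores 0.0680 and 5.64, with 11.2 on Stringent). Olfr46 had the higher percentile on High Coverage 1, with 70.3 against 44.8, and Olfr1348 the lower, with 15.1 against 39.0. Only the gap at Olfr520 was beyond the limit. High Coverage 2 was the higher array at 22 of the 43 (46.7% of all named promoters).

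The receptors without a region stayed under the calling threshold on every array. Olfr61 scored 1.43 on Stringent and 0.905 and 0.960 on High Coverage 1 and 2. Olfr527 scored -0.206, 1.27 and 0.385. Each of the 3, with Olfr305, had called regions further downstream, described below.

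The nearest pairs on opposite strands were not called together. Olfr522 and Olfr523, the closest such pair, start 9006 bp apart and point away from each other. Olfr522 scored 1.57 on Stringent and 0.759 and 3.27 on High Coverage 1 and 2, and Olfr523 scored 6.04, 1.80 and 2.40, so they were called on different arrays. Olfr303 and Olfr301, 9703 bp apart and also pointing away from each other, were called on High Coverage alone and on Stringent alone, and Olfr301 scored 5.96, 2.04 and 1.32. Olfr527 and Olfr60 face each other at 14294 bp. Olfr60 scored 12.4, 3.49 and 2.07, with regions on Stringent and High Coverage 1, and Olfr527 had none.

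Of the receptors not yet given, Olfr1336 in cluster 1 was called on Stringent with a score of 8.10, against 1.97 and 0.295 on the High Coverage arrays. In cluster 2, Olfr291 (16.2) and Olfr290 (14.8) were both called on Stringent, and Olfr291 also on High Coverage 2, with 4.44. In cluster 3, Stringent alone gave a region at Olfr309, Olfr308, Olfr307, Olfr297, Olfr294 and Olfr293, with scores between 2.65 (Olfr294) and 17.6 (Olfr308). Olfr295 had the highest Stringent score of the 43 (19.6), against 0.610 and 6.93, and was called on Stringent and High Coverage 2. Olfr310 was called on High Coverage 1 alone, with 3.57, against 0.782 on Stringent. In cluster 5, Olfr539 (3.05) and Olfr532 (1.80) were called on Stringent alone, and Olfr531 (6.29) on Stringent and High Coverage 2. The region at Olfr532 began 97 bp after the position and scored 19.1, while the score within 100 bp was under the calling threshold. At Olfr531 on High Coverage 2 the score within 100 bp (1.07) was also under it, with a region from 85 bp.

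Signal on Stringent set in at the named position and lay downstream of it. The median score was -0.90 from 100 to 50 bp before the position, 3.21 in the first 50 bp after it, 5.81 in the next, 6.22 from 100 to 150 bp and 3.97 from 150 to 200 bp. All other named promoters had -0.94, 2.11, 3.18, 1.41 and 0.39 in the same bins. On the High Coverage arrays the medians of the 43 stayed between -0.73 and 0.54 over these bins. The sources used here do not give how the authors set the positions, so they may rest on these same arrays, and the onset at the position is a description.

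**Figure D2:**
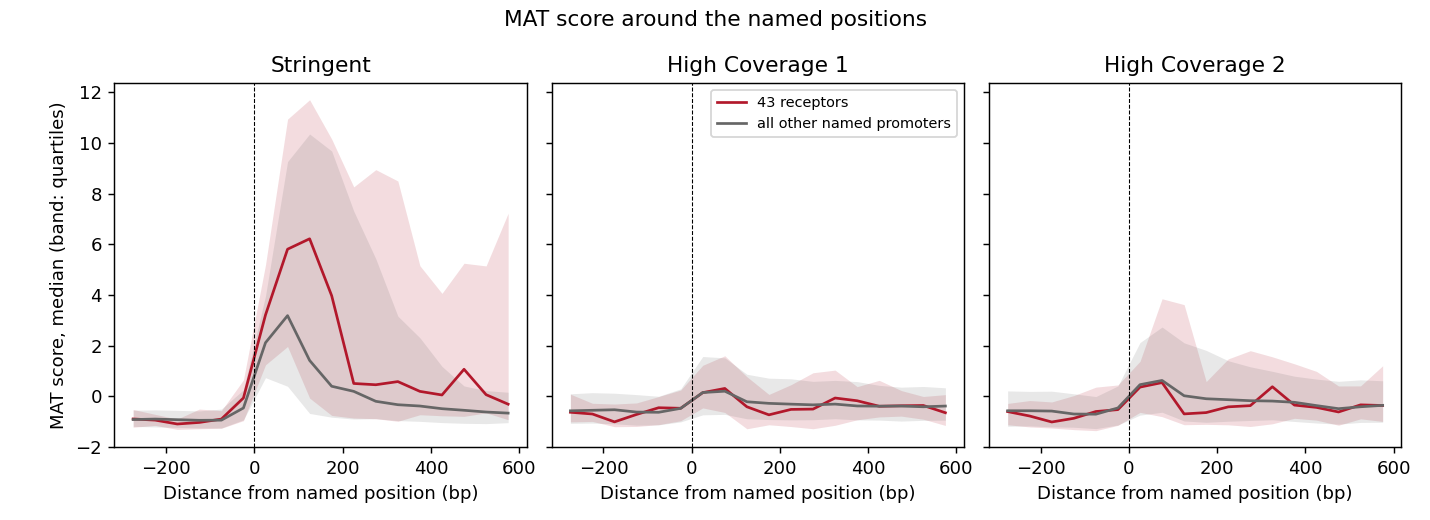
Median MAT score (lines) and quartiles (bands) in 50 bp bins from 300 bp before to 600 bp after the named positions, for the 43 receptors (red) and all other named promoters (grey), on each array. On Stringent the median of the 43 reaches 6.22 and that of the others 3.18, and on the High Coverage arrays both stay near 0.

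The mean score over the 150 bp downstream exceeded that over the 150 bp upstream at 40 of 42 receptors with probes on both sides on Stringent (95.2%, against 94.5% of all named promoters). On High Coverage 1 it did so at 32 (76.2%, against 70.3%) and on High Coverage 2 at 31 (73.8%, against 74.6%). The exceptions on Stringent were Olfr305 and Olfr304. Where Stringent gave a region, joining regions at gaps of up to 100 bp gave a first block that began at a median of -46 bp from the position (quartiles -55 and -35) and was 383 bp long. For all other named promoters it began at -44 bp and was 360 bp long.

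Called signal further downstream was present at most loci. For each receptor the highest-scoring block that began more than 100 bp after the position was taken, up to 10 kb and not beyond the next named position (or the midpoint to one that faces it), a definition made after seeing the data. Stringent had such a block at 39 of 43 receptors (90.7%, against 87.2% of all named promoters), High Coverage 1 at 42 (97.7%, against 96.0%) and High Coverage 2 at 40 (93.0%, against 93.0%). These shares are near the background. Of these blocks, 2 on High Coverage 1 (Olfr524 and Olfr532) and 3 on High Coverage 2 (Olfr293, Olfr532 and Olfr533) overlapped the block at the start on Stringent and are not separate from it. Without them, High Coverage 1 and 2 had a block at 40 and 37 receptors. With all blocks kept, they began a median of 3088, 3021 and 2811.5 bp after the position and were 786, 505 and 491.5 bp long. Which exon a block covers was not checked, since no annotation of the files' build was used here.

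The High Coverage arrays gave downstream blocks also where they gave no region within 100 bp of the position. Of the 22 receptors with no High Coverage region at the position, all 22 had a High Coverage block downstream, as did 496 of 511 such loci in all. Among the 22 are Olfr532 and, on High Coverage 2, Olfr293, where the highest block overlapped the Stringent block at the start. Olfr61 is the clearest of those with no region on any array. Its block ran from 419 to 1483 bp on Stringent with a score of 18.9, from 445 to 1538 bp on High Coverage 1 with 29.1, and from 470 to 1488 bp on High Coverage 2 with 13.8. Olfr527 had blocks scoring 17.0, 12.7 and 7.38, and Olfr305 had 3.74, 4.07 and 11.7. The block scored above the region at the position in 20 of 32 receptors with both on Stringent (73.2% of all such loci), in 11 of 14 on High Coverage 1 (75.8%) and in 14 of 18 on High Coverage 2 (72.3%).

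The arrays often placed the block at the same site. The blocks of Stringent and High Coverage 1 overlapped by at least 1 bp in 26 of 38 receptors (68.4%, and 60.4% of all other named promoters), those of Stringent and High Coverage 2 in 28 of 36 (77.8%, and 64.8%) and those of the High Coverage arrays in 29 of 39 (74.4%, and 61.8%). Olfr541 had its block from 6397 to 7887 bp on Stringent, 6859 to 8076 bp on High Coverage 1 and 6849 to 7937 bp on High Coverage 2, with scores of 17.4, 36.1 and 24.1. Olfr45 had blocks from 1177, 1350 and 1201 bp, with scores of 16.5, 34.9 and 20.5. Olfr46, which had no High Coverage region at its start, had blocks from 1562, 1717 and 1567 bp with 21.8, 29.5 and 17.1. Olfr530 was alike, with blocks from 2509, 2814 and 2799 bp scoring 17.8, 22.5 and 14.5. At Olfr1348 the highest block began at 7926 bp on Stringent (22.5) and at 1703 and 1707 bp on the High Coverage arrays (29.3 and 24.8). Stringent also had signal at that High Coverage site, with mean scores of 16.6, 15.7 and 18.4 in the 100 bp bins from 1800, 1900 and 2000 bp, so the site was shared and the highest block was not.

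**Figure D3:**
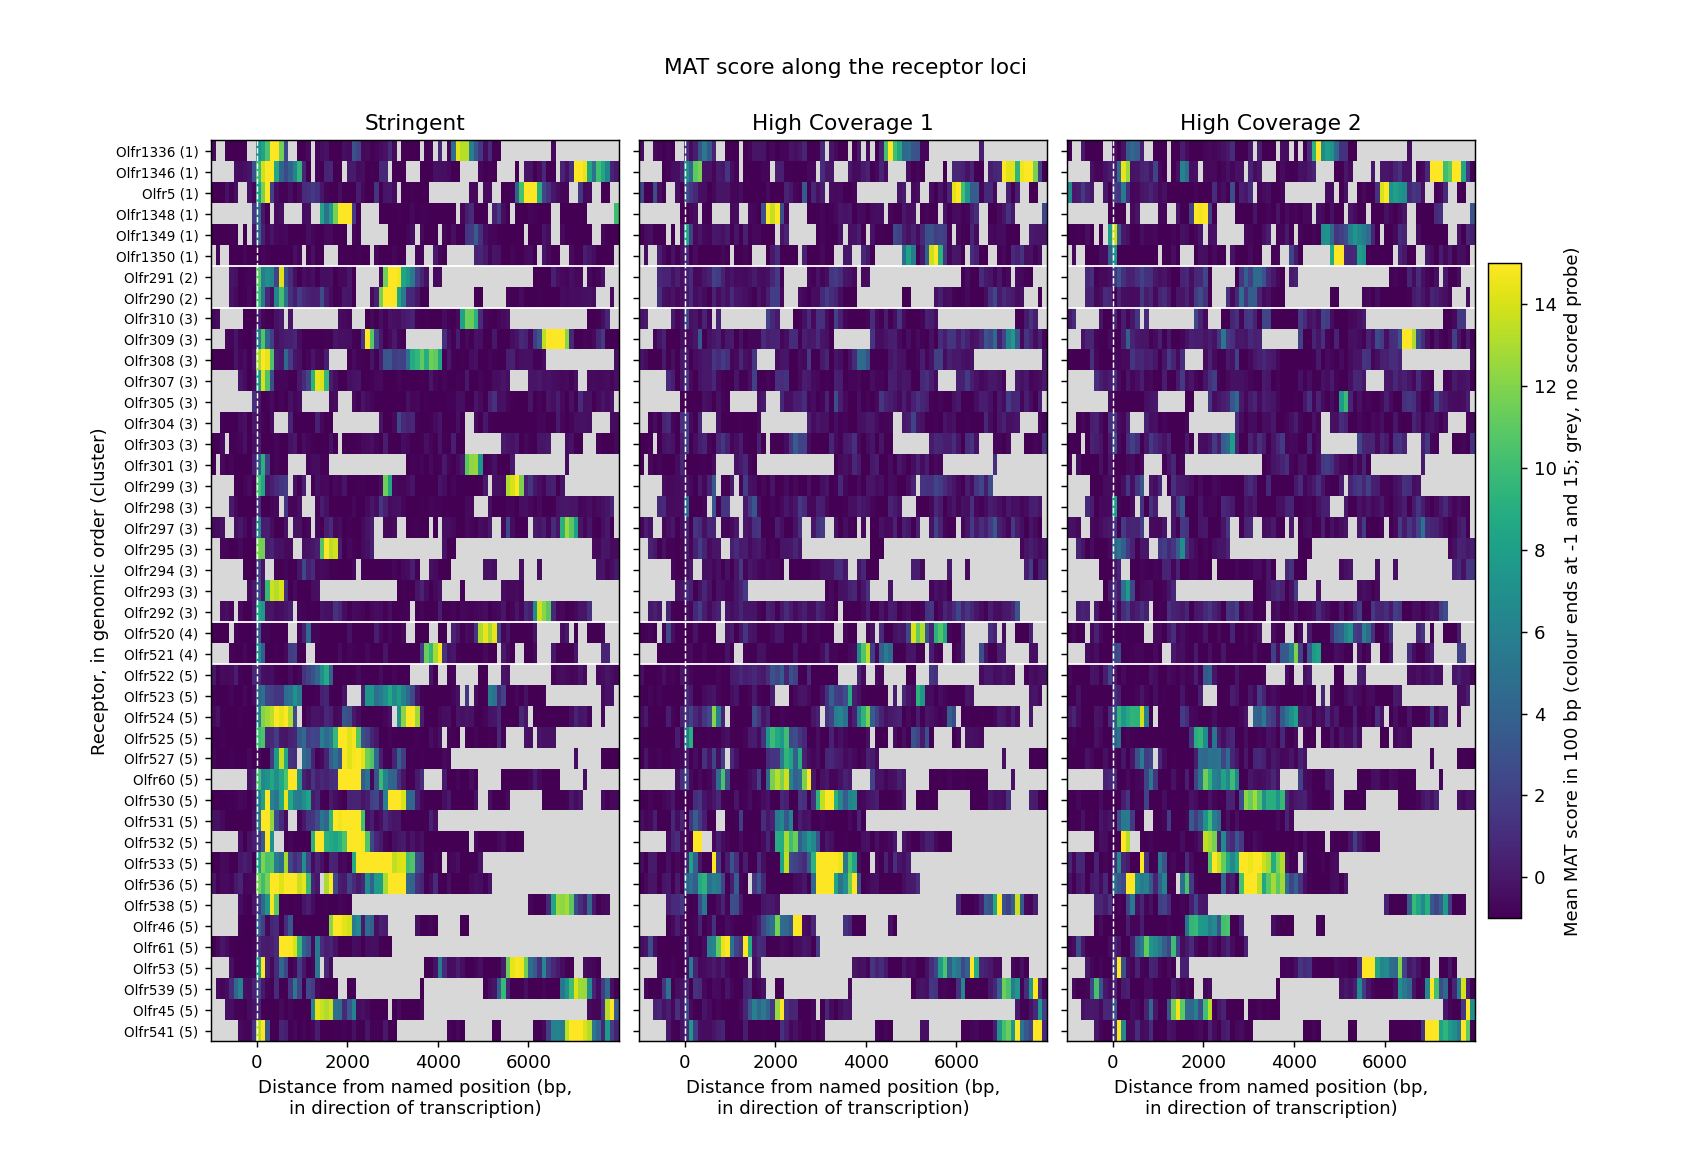
Mean MAT score in 100 bp bins from 1 kb before to 8 kb after each of the 43 named positions (rows, in genomic order with the cluster in brackets) on each array, with colour ends at -1 and 15 and grey where no probe was scored. Bright downstream stretches appear on all 3 arrays at many loci of clusters 1, 4 and 5, though not at Olfr1349, Olfr1350, Olfr522 and Olfr523, and in clusters 2 and 3 most appear on Stringent only.

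On the High Coverage arrays the loci of clusters 2 and 3 lay below the background and those of clusters 1, 4 and 5 above it. On Stringent, 11 of these 17 receptors had a downstream block scoring above 10 (a level chosen after seeing the data), against 68.5% of all named promoters. On High Coverage 1 it was 0 of 17 (interval 0 to 19.5%, against 39.4% of all), and on High Coverage 2 it was 2 of 17 (against 49.5% of all), Olfr309 with 21.2 and Olfr305 with 11.7. In clusters 1, 4 and 5, by contrast, 23 of 26 receptors had such a block on Stringent and 23 and 21 on High Coverage 1 and 2. These shares of 88.5%, 88.5% and 80.8% were above those of all named promoters on each array. Without the blocks that overlapped the Stringent block at the start, the High Coverage counts were 0 and 2 in clusters 2 and 3 and 21 and 19 in clusters 1, 4 and 5. The stretches were set against each other after the scores had been seen, so the interval does not test a difference, and no test was made.

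**Figure D4:**
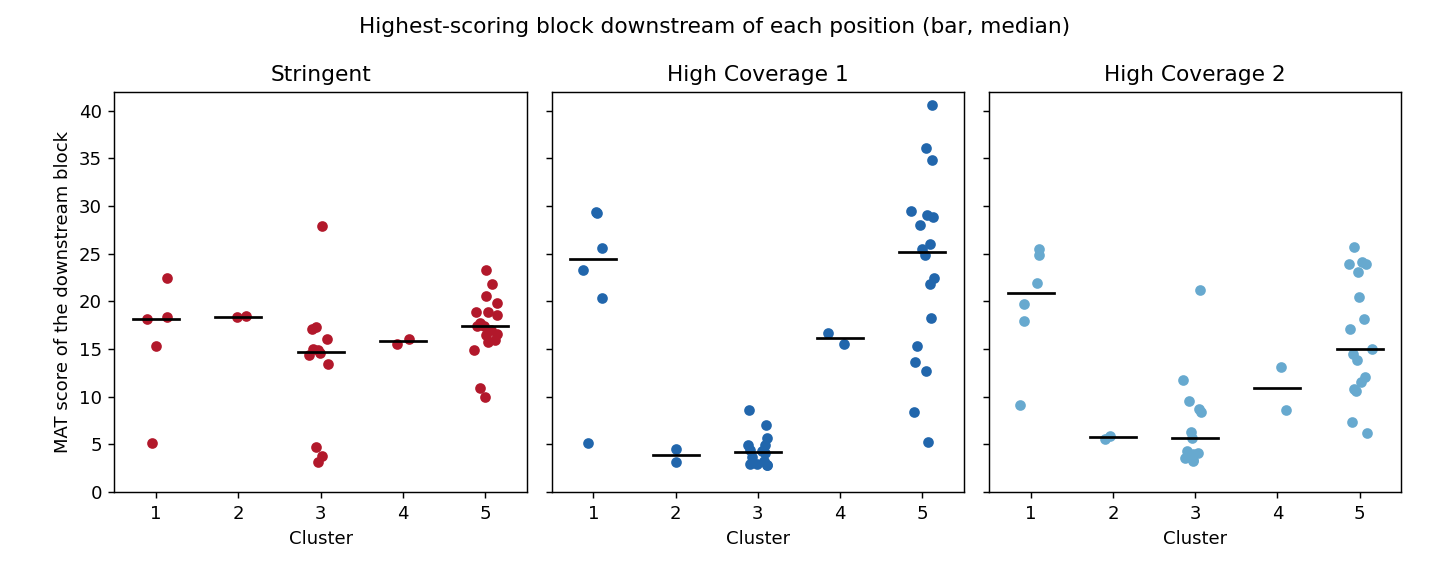
MAT score of the highest downstream block of each receptor by cluster, on each array, with the median as a bar. On High Coverage 1 the receptors of clusters 2 and 3 lie between 2.78 and 8.57, and all but 3 of those in clusters 1, 4 and 5 lie above 10.

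The values barely overlapped on High Coverage 1. In clusters 2 and 3 its block scores ran from 2.78 to 8.57 with a median of 4.19, and in clusters 1, 4 and 5 from 5.11 to 40.6 with a median of 24.1. The median of all other named promoters, 8, lay between them. The 3 receptors of the second set at or under 10 were Olfr1349 (5.11), Olfr522 (5.25) and Olfr531 (8.41). The median block was 167.5 bp long in clusters 2 and 3 and 928.5 bp in clusters 1, 4 and 5. On High Coverage 2 the median scores were 5.64 and 17.1, and on Stringent they were 14.9 and 17.4, so the sets were closest on Stringent. All other named promoters had medians of 10.55 on High Coverage 2 and 16.42 on Stringent.
Several loci with a strong Stringent block had weak ones on High Coverage. At Olfr307 the block scored 16.1 on Stringent, against 4.30 and 3.24 on High Coverage 1 and 2, and at Olfr299 it scored 17.3, against 4.43 and 3.53. At Olfr290 it scored 18.4, against 4.55 and 5.90, and at Olfr291 18.3, against 3.15 and 5.60. Other loci differed. Olfr309 had 27.9 on Stringent and 8.57 and 21.2 on High Coverage 1 and 2, and Olfr305 had 3.74, 4.07 and 11.7. Olfr303 (4.94 and 9.55) and Olfr298 (4.87 and 4.13) had blocks on High Coverage 1 and 2 and none on Stringent. Regions at the position were counted at 12, 3 and 5 of 17 receptors of clusters 2 and 3 on Stringent, High Coverage 1 and High Coverage 2 (70.6%, 17.6% and 29.4%), and at 21, 11 and 14 of 26 of clusters 1, 4 and 5 (80.8%, 42.3% and 53.8%). The shares of all named promoters were 61.7%, 36.4% and 43.6%, and with such small counts no difference between the stretches is read from them. The amplification, the samples and the arrays differ together between Stringent and High Coverage, so their parts in this pattern cannot be told apart.

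Blocks varied most on High Coverage 1 within cluster 5. Olfr533 had the highest of all, with 20.6 on Stringent and 40.6 and 25.7 on High Coverage 1 and 2, where the highest block was another one, at 591 to 789 bp. Olfr536 had blocks of 18.9, 28.02 and 23.9 on Stringent, High Coverage 1 and High Coverage 2, and Olfr53 of 15.9, 28.8 and 23.04. Olfr532 had its highest High Coverage blocks at 146 to 376 bp (25.5 and 23.9), inside the Stringent region of 97 to 376 bp at its start. Block scores of the High Coverage arrays went together over the receptors (r = 0.845, n = 39). Those of Stringent went less with High Coverage 1 (r = 0.446, n = 38) and High Coverage 2 (r = 0.437, n = 36), again as a description of linked loci. All other named promoters had the same order of array pairs, with r = 0.608, 0.312 and 0.298.

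Some loci had regions before the named position. A region lay up to 2 kb upstream, not touching the window of 100 bp, at 2 of 43 receptors on Stringent (4.65%, against 2.95% of all named promoters), at 7 on High Coverage 1 (16.3%, against 25.6%) and at 5 on High Coverage 2 (11.6%, against 21.8%). Only Olfr5 and Olfr539 had one on all 3 arrays (4.65%, against 1.57%). At Olfr5 it ran from -1916 to -1429 bp with a score of 18.4 on Stringent, and scored 25.1 and 24.2 on High Coverage 1 and 2. At Olfr539 it ran from -513 to -258 bp with 8.25 on Stringent and 7.94 and 12.3 on High Coverage 1 and 2. Set against the block at the position, the upstream region of Olfr5 scored slightly higher on Stringent (18.4 against 17.91). On High Coverage 1 and 2 the block at the position of Olfr5 scored 9.61 and 8.78. At Olfr539 the block at the position scored 3.05 on Stringent, and neither High Coverage array gave a region there. The nearest named position to Olfr5, 12830 bp upstream on the same strand, is an unannotated pseudogene, and which transcript the upstream region of Olfr5 belongs to was not tested.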

How the data were processed

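RLM-RACE products of olfactory epithelium on 3 tiling arrays were analysed, 1 Stringent and 2 High Coverage. Per the file headers, the authors made each deposited score file from a single array without a control (MAT scores, bandwidth 50, gap limit 30, minimum of 5 probes). The region lists give the authors' score of every region called at an FDR of 0 percent, and region scores serve only as description and rank on their own array. The deposited promoter table holds 1 position and strand per row. The submitters' processing notes name mm9 as the build.

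Probes at exactly 0 on all arrays (5.42% of 2313448) were left out as unscored. A region counted at a position when it overlapped the window of 100 bp on each side by at least 1 bp. Intervals are exact Clopper-Pearson at 95% and cover counting error only. No p-value was computed, because the Stringent group holds 1 array. The number of arrays limits the precision. The members and lists were chosen with earlier results of these data known, and the downstream blocks, the score of 10 and the gene model length of 3000 bp after seeing the data. Every receptor is named, with full values for the highest on all arrays, the largest differences between arrays, those with regions on all or no arrays and the nearest opposite pairs. The rule asked for promoter windows of the highest receptors, but most of these adjoin coding sequence, so windows were chosen by gene model instead. Windows were aligned globally with Biopython 1.88 (match 1, mismatch -1, gap opening -3, extension -0.5). Counts used Python 3.11.15, numpy 2.4.6, pandas 2.3.3 and scipy 1.17.1, and figures matplotlib 3.10.9. Only the reading of window values, the percentile ranks and the overlap of regions were tested on simulated data with planted signal. The blocks, the upstream regions, the motif search and the alignments were not tested in that way.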

Additional observations from a re-analysis of the deposited data

How the results depend on the processing

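Of 80 alternatives over 23 results, 63 stayed within 1.5 times a count or 1 SD of a median (3.97 percentile points or 70.7 bp, between the High Coverage arrays), 17 moved and none reversed. With windows of 500 bp, called receptors numbered 26 on High Coverage 1, 29 on High Coverage 2 and 18 on all 3 arrays, and 3 were higher on Stringent beyond the limit. Counting at the position itself left 11 on High Coverage 2 and 4 on all 3 arrays. Windows of 50 bp gave a median percentile of 86.8 on High Coverage 1. The mean score in the window gave 66.9 on High Coverage 1, 74.9 on High Coverage 2, a median difference of 17.8 points and 9 receptors higher on Stringent. Scaling each array by its median and median absolute deviation (MAD) gave a median difference of 14.9 MAD units, 25 receptors higher and 0 lower, so these counts depend on the scale. Leaving out 1 High Coverage array gave a median difference of 1.92 to 2.10 points, 3 (without High Coverage 1) to 4 receptors higher and 1 lower. With a reach of 5 kb the median distance of the Stringent block was 2326 bp, and 1 receptor of clusters 2 and 3 had a High Coverage 2 block above 10. Alternatives for the blocks were chosen after seeing the data. No paired analysis was possible because the single Stringent array carries no replicate number. The causes of these shifts were not tested. Probe scores limit resolution to about the window MAT combines, and a receptor with no region may still have transcripts under the calling threshold.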
